A study of Mus musculus with 4 samples.

Results

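Among day 6 embryoid bodies (EBs) from wild-type (WT) mouse V6.5 embryonic stem cells, a set of cells was marked by the signalling gene Shh, the anterior transcription factor gene Six3 and 4 further genes. These Shh Six3 cells were chosen by their own counts, from the leading genes of a cluster of the same cells. A barcode, taken as 1 cell, was kept with at least 2000 unique molecular identifiers (UMIs, each counted as 1 RNA molecule) and 1000 genes. It was a Shh Six3 cell when it held a UMI in 3 or more of Shh, Six3, Kirrel3, Samd3, Slit2 and Cobl (the gate genes) and in fewer than 3 of Krt7, Gpx2, Lypd2, Sfn, Cldn4 and Masp1. The rule found 290 of 3660 cells in WT replicate 1 (7.92%, exact 95% binomial interval 7.07 to 8.85) and 646 of 6338 in WT replicate 2 (10.2%, interval 9.46 to 11.0). The mean share was 9.06% ± 1.60 (SD, n = 2), or 936 of 9998 WT cells, out of 17298 cells past the depth filter in all 4 libraries. The name stands for the rule and not for cells that hold both genes, since UMIs of both Shh and Six3 were found in 93 of the 290 cells and 225 of the 646. The intervals cover counting error only, and the difference between replicates was larger than that error.

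The series compared 2 biological replicates of LSD1KO EBs with 2 of WT EBs, each 1 droplet library of 3′ transcript ends. The LSD1KO line lacks the promoter and first exon of the gene for LSD1, a histone demethylase and corepressor subunit, through CRISPR/Cas9 deletion in every cell. All EBs of both genotypes were grown as hanging drops for 6 days in serum medium without LIF or the 2 kinase inhibitors that hold stem cells naive. Whether the replicates came from separate clones is not given for these libraries in the sources used here.

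Shh is a secreted ligand released along the midline of the embryo, by the axial mesendoderm (node, notochord and prechordal plate) and later by the floor plate of the neural tube that lies above it. Axial mesendoderm arises during gastrulation, is marked by T, Foxa2, Chrd, Nog, Gsc and Cer1, and secretes BMP, Nodal and Wnt antagonists that pattern the overlying ectoderm. Six3 is best known as a homeobox gene of the anterior neural plate and eye field, where Sox1, Pax6 and Sox2 mark neural progenitors. Shh and Six3 together thus leave neural and axial mesendoderm identity to be told from other genes.

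The values used by the rule come first, as a description. Shh was at 137 and 176 CPM in the Shh Six3 cells, against 2.12 and 2.85 CPM in the other cells (CPM, a set's summed counts of the gene scaled to a common total, with WT replicates 1 and 2 in that order throughout). Six3 was at 131 and 162 CPM in the Shh Six3 cells, against 8.96 and 19.9 CPM in the other cells. Slit2, a secreted guidance ligand of Robo receptors, was the most abundant of the 6, at 1108 and 909.5 CPM in the Shh Six3 cells, against 126 and 59.8 CPM in the other cells. Kirrel3, a cell adhesion protein of the immunoglobulin superfamily, was at 328 and 279.6 CPM in the Shh Six3 cells, against 11.1 and 12.7 CPM in the other cells, Cobl, an actin nucleator, at 155 and 112 CPM, against 7.45 and 11.1 CPM in the others and Samd3, which encodes a SAM domain protein, at 130.0 and 142 CPM, against 6.98 and 15.2 CPM in the others. All 6 stood higher in the Shh Six3 cells of both libraries, as the rule fixes. To see how far the rule alone sets such a level, each gene was also read in cells that held 3 or more of the other 5. Shh was then at 139.6 and 172 CPM in the cells so chosen, against 2.97 and 5.77 CPM in the rest, and Six3 at 128 and 144 CPM, against 11.8 and 26.1 CPM. The 6 genes came from 1 cluster, so this too is a description.

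A single UMI can also come from RNA free in the droplets. In barcodes of 1 to 100 UMIs, which hold mostly free RNA, the 6 gate genes summed to 246 and 186 CPM, above the 163 and 122 CPM of the other cells and below the 1989 and 1781 CPM of the Shh Six3 cells. A UMI of Shh was found in 51.7 and 57.4% of the Shh Six3 cells, 2.26 and 1.69% of the other cells and 1.13 and 0.901% of cells chosen by visceral endoderm genes. For Six3 these shares were 64.1 and 67.5% in the Shh Six3 cells, 5.99 and 9.54% in the other cells and 0.565 and 0.901% in the visceral endoderm set. Slit2 had the widest background, with a UMI in 91 and 93.7% of the Shh Six3 cells, 34.8 and 20.4% of the other cells and 8.47 and 0.901% of the visceral endoderm set. How many cells met the rule through free RNA was not tested.

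The gate genes lie apart in the genome. On mm9, Shh is on chromosome 5 from 28783355 to 28793641 (minus strand) and Slit2 on the same chromosome from 48374394 to 48697521 (plus strand). Six3 is on chromosome 17 from 86012948 to 86031153 (plus), Kirrel3 on chromosome 9 from 34293711 to 34844301 (plus), Samd3 on chromosome 10 from 25949513 to 25991978 (plus) and Cobl on chromosome 11 from 12136611 to 12364963 (minus). T, the gene that led the rest, shares chromosome 17 with Six3, from 8627288 to 8635361 (plus). All 7 are annotated as protein coding, and the coordinates are those of GENCODE M1.

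Depth was close between the sets. The 4 libraries held 72285943 to 75406512 UMIs each. The Shh Six3 cells had a median of 14667.5 UMIs in replicate 1 and 10194.5 in replicate 2, and the other WT cells 14413 and 9536. The deleted gene, Kdm1a, had 1.09 and 0.835 CPM in LSD1KO libraries, against 217 and 229 CPM in WT libraries. The 2 WT libraries shared 6 barcodes past the depth filter, and none of these belonged to a Shh Six3 cell in both. No mitochondrial gene is listed in the matrices, so cell quality was not judged by that measure.

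All genes outside the 12 of the rule were then compared. A gene was counted as higher or lower when it differed at least 2-fold from the other cells in both libraries, with 5 CPM added to both levels, among 17149 genes seen in 10 or more WT cells. By that count 164 genes were higher, 0.956% of the genes measured, and 111 were lower, 0.647%. The cells were chosen from a cluster of these same libraries, so no test was run on any of these differences. The median log2 fold of all genes was 0.03. The counts and medians of each gene list below are to be read beside these shares and this median.

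Of 18 axial mesendoderm genes measured, 8 were higher and 0 lower (Foxa2 among them, which the floor plate and endoderm lists share), with a median log2 fold of 0.41. This and the other gene lists were chosen with earlier results of these data known, so their counts are a description. T (brachyury), a T-box factor of the primitive streak and notochord, was at 193 and 211 CPM in the Shh Six3 cells, against 7.88 and 11.2 CPM in the other cells, a mean log2 fold of 3.84 the largest among genes outside the rule with at least 50 CPM and a UMI in at least 25% of the Shh Six3 cells of both libraries. A UMI of T was seen in 52.1 and 57.3% of the Shh Six3 cells and in 4.6 and 5.92% of the others, and in 1.13 and 0% of cells chosen by visceral endoderm genes, at a median depth of 21575 and 10649 UMIs. With every cell thinned to 2000 UMIs these shares were 24.1 and 28.2% in the Shh Six3 cells, 1.1 and 2.04% in the others and 0 and 0% in the cells with visceral endoderm genes. In both libraries T thus stood above its level in cells that should lack it.

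The BMP antagonists of the midline went the same way. Nog was at 53.4 and 53.6 CPM in the Shh Six3 cells, against 4.59 and 4.43 CPM in the other cells, and Chrd at 26.2 and 23.1 CPM, against 2.68 and 2.42 CPM in the others. Cer1, an antagonist of Nodal, BMP and Wnt made by anterior endoderm and mesendoderm, was at 91.6 and 83.8 CPM in the Shh Six3 cells, against 7.1 and 14 CPM in the other cells. Gsc, a homeobox repressor of the organizer and prechordal plate, was at 39.2 and 64.5 CPM in the Shh Six3 cells, against 8.09 and 16.3 CPM in the other cells, and Dkk1, a secreted Wnt inhibitor of the anterior midline, at 92.4 and 144 CPM, against 32.6 and 36.8 CPM in the others. Foxa2, a forkhead factor needed for node and floor plate, was at 97.3 and 116 CPM in the Shh Six3 cells, against 36.8 and 40.1 CPM in the other cells, and Car3, a carbonic anhydrase expressed in notochord, at 51.4 and 48 CPM, against 2 and 1.89 CPM in the others. In each of these 7 genes both libraries of Shh Six3 cells stood above both libraries of other cells.

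The other 10 axial genes did not pass in both libraries. Noto, a homeobox gene of the node and notochord, had 5 and 11 UMIs in the Shh Six3 cells, against 4 and 0 UMIs in the more numerous other cells. Foxj1, the factor for motile cilia of the node, was at 3.45 and 3.96 CPM, against 1.44 and 1.14 CPM in the others. Genes of the earlier streak were low in both sets, with Mixl1 at 0.203 and 0.264 CPM, against 0.487 and 0.448 CPM in the others and Nodal at 1.02 and 2.51 CPM, against 2.61 and 2.94 CPM in the others. Lhx1 (36 and 60.2 CPM, against 26.9 and 56.7 CPM in the others) and Hhex (21.1 and 33.1 CPM, against 21.4 and 32.5 CPM in the others), factors of anterior mesendoderm and endoderm, were at similar levels in both sets.

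**Figure D1:**
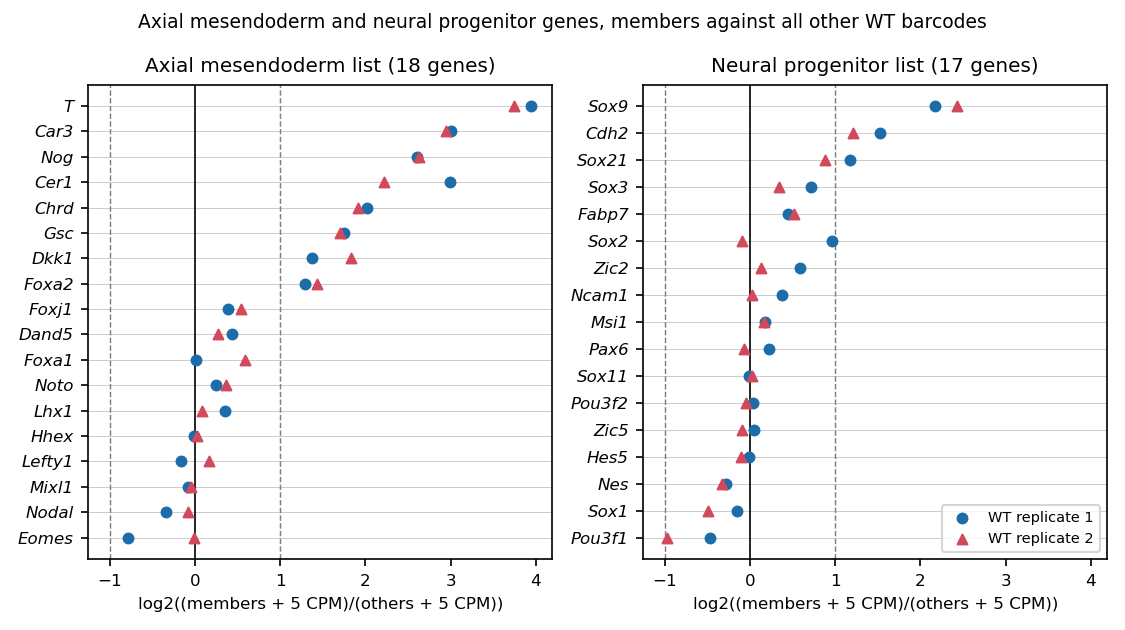
Log2 fold of the Shh Six3 cells (members) over all other WT cells, with 5 CPM added to each level, for the measured genes of the axial mesendoderm list (left) and neural progenitor list (right); circles are WT replicate 1, triangles WT replicate 2, and dashed lines mark 2-fold. In both replicates 8 of 18 axial genes lie right of the upper dashed line, T the farthest, while 2 of 17 neural genes do, Sox9 and Cdh2. Both lists were chosen with earlier results of these data known.

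Fewer of the neural progenitor genes were higher. Of 17 measured, 2 were higher and 0 lower, with a median log2 fold of 0.17. Over all genes measured, 0.956% were higher and 0.647% lower, with a median of 0.03. The 2 were Sox9, at 59.1 and 85.9 CPM in the Shh Six3 cells, against 9.28 and 11.8 CPM in the other cells, and Cdh2, the gene for N-cadherin, at 283 and 242 CPM, against 94.9 and 102 CPM in the others. Both are also known outside neural tissue, Sox9 in notochord and cartilage and Cdh2 in mesoderm. Sox1, the most specific early neural factor of the list, was at 3.05 and 3.56 CPM in the Shh Six3 cells, against 3.95 and 7.05 CPM in the other cells, and Pax6 at 2.03 and 1.58 CPM, against 1.03 and 1.91 CPM in the others. Hes5, a Notch target of neural progenitors, was at 0.406 and 0.528 CPM, against 0.452 and 0.929 CPM in the others, and Zic1 gave 0 UMIs in the Shh Six3 cells of both libraries. Zic1 was rare in the other cells too, at 2 UMIs or fewer at each number of gate genes (cells left out through the Krt7 genes not counted).

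Sox2, which neural progenitors and pluripotent cells share, was at 38 and 33.1 CPM in the Shh Six3 cells, against 17.1 and 35.7 CPM in the other cells. It was higher in the Shh Six3 cells of replicate 1 and slightly lower in those of replicate 2. Sox21 (19.3 and 22.2 CPM, against 5.73 and 9.78 CPM in the others) passed 2-fold in replicate 1 alone. Sox3, Fabp7, Nes and Pou3f1 stayed under 2-fold in both, and Nes, the gene for nestin, was lower in each library at 10.6 and 9.23 CPM, against 13.9 and 12.8 CPM in the others. Sox3 and Fabp7 were at a few CPM, where the 5 CPM added holds a fold down. Sox3 was at 8.53 and 3.43 CPM in cells with 5 gate genes, against 1.98 and 3.07 CPM with 0. Fabp7 was at 9.75 and 4.81 CPM with 5, against 1.01 and 2.27 CPM with 0. Among genes of neurons Map2 was higher (54.9 and 50.4 CPM, against 4.44 and 6.07 CPM in the others), while Tubb3 was at 9.14 and 6.46 CPM, against 4.44 and 5.62 CPM in the others and Dcx at 0 or 1 UMI per library of Shh Six3 cells. Dcx was rare in the other cells too, at 2 UMIs or fewer at each number of gate genes (cells left out through the Krt7 genes not counted). Of the 9 neuron genes measured 1, Map2, was higher and 1, Gap43, lower.

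Floor plate cells would also carry Shh and Foxa2. Of 10 floor plate genes measured, 2 were higher and 0 lower, with a median log2 fold of 0.38. They were Foxa2 and Lmx1a, a LIM homeobox factor known in the midbrain floor plate, which was at 63.4 and 64.5 CPM in the Shh Six3 cells, against 1.04 and 1.06 CPM in the other cells. Ntn1, the gene for the guidance cue netrin 1, was at 23 and 21.9 CPM, against 6.23 and 9.57 CPM in the others and passed 2-fold in replicate 1 alone. Ferd3l, a factor of the floor plate, had 0 UMIs in the Shh Six3 cells of both libraries, and Corin was at 5.08 and 2.37 CPM, against 1.48 and 1.21 CPM in the others. Ferd3l also gave 0 UMIs at each lower number of gate genes (cells left out through the Krt7 genes not counted). Of 9 genes of the ventral neural tube measured, Nkx2-2 alone was higher, at 14.4 and 20.3 CPM, against 1.17 and 2.77 CPM in the others. Nkx6-1 was at 2.23 and 6.07 CPM, against 0.435 and 1.01 CPM in the others, Olig2 at 0 and 0.264 CPM, against 0.174 and 0.481 CPM in the others and Nkx2-1, the factor of the ventral forebrain, at 0.203 and 0.132 CPM, against 1.44 and 0.448 CPM in the others.

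Genes of anterior position were present, though those of the eye field were scarce. Of 16 eye field and forebrain genes, 2 were higher and 1 lower, with a median log2 fold of 0.20. Otx2, a homeobox factor of both anterior neural and anterior mesendoderm cells, was at 204 and 283 CPM in the Shh Six3 cells, against 49.9 and 101 CPM in the other cells. Foxd1, a forkhead factor of the forebrain, was at 23.8 and 18.5 CPM in the Shh Six3 cells, against 0.522 and 1.09 CPM in the other cells, and Tbx3 was the one that was lower. Hesx1, an anterior repressor, was at 16.9 and 19.7 CPM, against 5.66 and 12.1 CPM in the others and passed 2-fold in replicate 1 alone. Rax (4.67 and 5.15 CPM, against 0.853 and 2.06 CPM in the others), Lhx2 (2.23 and 1.85 CPM, against 1.97 and 2.4 CPM in the others) and Six6 (0 and 1.32 CPM, against 0.4 and 1.49 CPM in the others), which mark the eye field, were near the floor. Of 10 genes of hindbrain to tail position, 0 were higher and Hoxb2 was lower, at 5.28 and 1.98 CPM, against 16.5 and 10.4 CPM in the others. Hoxa5 and Cdx4, of the trunk and tail, gave 0 UMIs in the Shh Six3 cells of both libraries. Both were rare in the other cells too, at 5 UMIs or fewer at each number of gate genes (cells left out through the Krt7 genes not counted).

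Hedgehog signalling was read next, because target genes record that cells receive the ligand. Of 16 pathway genes besides Shh, 3 were higher and 0 lower, with a median log2 fold of 0.21. Ptch1, the Shh receptor and itself a target, was at 527 and 487 CPM in the Shh Six3 cells, against 137 and 176 CPM in the other cells. Cdon, a coreceptor, was at 65.2 and 58 CPM, against 27.5 and 24 CPM in the others. Gli1, a transcription factor induced by the pathway, was at 18.3 and 16.9 CPM in the Shh Six3 cells, against 3.92 and 6.17 CPM in the other cells, which passed 2-fold in replicate 1 and fell just under it in replicate 2 (log2 0.97). Hhip, a target that sequesters the ligand, was at 14.6 and 6.2 CPM, against 11.2 and 12.2 CPM in the others, with opposite order in the 2 libraries. Ihh, the ligand of visceral endoderm, was at 0.61 and 0.132 CPM, against 7.45 and 2.31 CPM in the others. Of the targets named, Ptch1 was thus higher in both libraries, Gli1 in 1 by the 2-fold rule, and Hhip in neither.

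Of 15 Wnt antagonists and receptors, 4 were higher and 0 lower, with a median log2 fold of 0.18. Beside Dkk1 these were Shisa2, an endoplasmic reticulum protein that holds back Wnt and FGF receptors, at 60.1 and 78.5 CPM, against 14.5 and 28.3 CPM in the others, and the Wnt receptors Fzd5 at 65.8 and 75.3 CPM, against 15.1 and 24.1 CPM in the others and Fzd8 at 18.9 and 15.4 CPM, against 3.29 and 4.11 CPM in the others. The Wnt targets Axin2 (9.35 and 7.26 CPM, against 13.6 and 10.2 CPM in the others) and Lef1 (85.5 and 74.9 CPM, against 108 and 80.3 CPM in the others) did not pass. In the Slit and netrin list of 10 genes, Unc5c, a netrin receptor, was lower (57.3 and 28.1 CPM in the Shh Six3 cells, against 241 and 135 CPM in the other cells) and 0 were higher. Robo1, the main receptor for Slit2, was at 188 and 146 CPM in the Shh Six3 cells, against 216 and 203 CPM in the other cells, lower in the Shh Six3 cells of both libraries though under 2-fold. Among 9 measured genes of Kirrel, nephrin and Eph adhesion none passed in either direction, and Epha7 came nearest at 90 and 70.1 CPM, against 27.1 and 37.4 CPM in the others.

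Further genes of the leading 25 belonged to no list. Alcam, an immunoglobulin adhesion molecule, was at 222 and 184 CPM in the Shh Six3 cells, against 17.8 and 7.6 CPM in the other cells. Cthrc1, a secreted protein of Wnt planar polarity signalling, was at 184 and 172 CPM in the Shh Six3 cells, against 16.6 and 24.5 CPM in the other cells, and Lgr5, an R-spondin receptor and Wnt target, at 154 and 113 CPM, against 19.9 and 14.9 CPM in the others. Col2a1, the collagen of notochord and cartilage, was at 100.2 and 106 CPM in the Shh Six3 cells, against 20.2 and 26.2 CPM in the other cells. Il1rapl1, Cntn4 and Lsamp, synaptic or axonal adhesion proteins in neurons, were at 102 and 99.5, 172 and 121 and 107 and 92.6 CPM in the Shh Six3 cells, against 9.15 and 18.2, 20.3 and 27.5 and 14.4 and 22.5 CPM in the others. The most widespread was Elmo1, a regulator of Rac, seen in 95.9 and 92.7% of Shh Six3 cells and 61.2 and 54.7% of others. The remaining leaders ranged from a mean log2 fold of 1.85 for Zfhx4, a zinc finger homeobox gene, to 2.54 for Tmod2, an actin capping protein, with Clu, Sobp, Slc24a3, Arl4a, Agbl4, Lrig3, Adgrv1, Kif26b and Arhgap24 between. In every one of the 25 genes both libraries agreed in direction, which the choice of genes fixes.

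Endoderm genes were not raised beyond Foxa2. Of 16 definitive endoderm and foregut genes, 3 were lower, Gata4 and Gata6 among them, with a median log2 fold of −0.63. Sox17, the defining factor, was at 20.5 and 28.1 CPM in the Shh Six3 cells, against 47.9 and 43.2 CPM in the other cells. Of 12 visceral endoderm genes, 0 were higher and 5 lower (Ttr, Apob, Apom, Spink1 and Dab2). Ttr, the most abundant marker, was at 32.1 and 4.62 CPM in the Shh Six3 cells, against 254 and 94.3 CPM in the other cells, and the summed level of the list was 516 and 261 CPM in the Shh Six3 cells, against 2127 and 1259.5 CPM in the others.

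The genes that stood lowest against the other cells belonged to several kinds of tissue. After Ttr came S100a6, a calcium-binding protein, at 52.2 and 32.6 CPM in the Shh Six3 cells, against 348 and 222 CPM in the other cells, and Phlda2, an imprinted gene that restrains placental growth, at 33.1 and 37.3 CPM, against 234 and 152 CPM in the others. Cited1, a transcriptional coregulator, was at 17.5 and 11.2 CPM, against 107 and 59 CPM in the others, Nrp1, a receptor for semaphorin and VEGF, at 179 and 58.6 CPM, against 593 and 334 CPM in the others, and Arhgap6, a GTPase-activating protein, at 28.6 and 16.9 CPM, against 123 and 86.5 CPM in the others. All of these were lower in both libraries, by a mean log2 fold of −2.61 to −1.99.

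Heart and lateral mesoderm genes were the lowest of the lists by median, with 9 of 12 lower and 0 higher and a median log2 fold of −1.54. Hand1, a factor of lateral and extraembryonic mesoderm, was at 37.4 and 15.2 CPM in the Shh Six3 cells, against 174 and 99.6 CPM in the other cells. Mef2c, a muscle and heart factor, was at 8.94 and 8.44 CPM, against 56.1 and 62.5 CPM in the others and Tnnt2, cardiac troponin T, at 5.49 and 4.22 CPM, against 28.8 and 29.5 CPM in the others. In the endothelium list Kdr and Etv2 were lower of 8, and Cdh5, its defining gene, was at 1.63 and 1.19 CPM, against 14.1 and 4.39 CPM in the others. Cranial and paraxial mesenchyme genes were mostly level, with Prrx1 alone higher of 12 (39.4 and 31.8 CPM in the Shh Six3 cells, against 2.54 and 5.12 CPM in the other cells). Surface ectoderm had 1 of 10 higher, Eya2, while its defining gene Trp63 was at 0.203 and 0.132 CPM, against 0.139 and 0.116 CPM in the others. None of 10 pluripotency, 10 cell cycle, 10 stress, 10 parietal endoderm or 5 blood genes passed in either direction. The cell cycle gene Top2a was at 553 and 553 CPM in the Shh Six3 cells, against 395 and 424 CPM in the other cells, and Mki67 at 214 and 181 CPM, against 185 and 153 CPM in the others, each under 2-fold.

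Epithelial genes were common to both sets, with 0 of 12 passing. Epcam was at 206 and 173 CPM in the Shh Six3 cells, against 304 and 272 CPM in the other cells, Cdh1, the gene for E-cadherin, at 195 and 126 CPM, against 187 and 137 CPM in the others, and Krt8 at 547 and 562 CPM, against 762 and 519.9 CPM in the others. Krt19, an epithelial keratin, was at 179.6 and 241 CPM in the Shh Six3 cells, against 97.1 and 54 CPM in the other cells, higher in both libraries and past 2-fold in replicate 2 alone. The set as a whole thus held E-cadherin transcripts along with the N-cadherin described above. Of the 12 markers by which the study assigned clusters to stem cells and the 3 germ layers, 4 were lower (the mesoderm markers Hand1, Hand2, Tnnt2 and Mef2c) and 0 were higher. Pou3f1, its ectoderm marker beside Nes, was at 9.75 and 7.26 CPM in the Shh Six3 cells, against 15.3 and 19.1 CPM in the other cells.

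The cells on either side of the threshold were then compared. In replicate 1 the Shh Six3 cells split into 126, 78, 53 and 33 cells with 3, 4, 5 and 6 gate genes, and in replicate 2 into 280, 180, 130 and 56. The steps count the rule's own genes, which came from 1 cluster of these same cells, so the series is a description and no check of the threshold. T, which the rule does not use, was higher at each step from 1 gate gene up, apart from the last in replicate 2. From 0 to 6 gate genes it was at 7.33, 5.99, 15.6, 78.2, 182, 323 and 443 CPM in replicate 1 and at 7.96, 9.31, 29.8, 85.7, 264, 349 and 322 CPM in replicate 2. Just inside the threshold, at 3 genes, T was at 78.2 and 85.7 CPM, against 15.6 and 29.8 CPM just outside, at 2 genes. Lmx1a was at 11.3 and 17.7 CPM inside and 4.08 and 3.85 CPM outside, and Nog at 23.5 and 23 CPM inside and 10.4 and 10.1 CPM outside.

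Axial genes did not all follow T along this series. Car3 was at 91.4 and 109.8 CPM in cells with 5 gate genes, against 29.4 and 18.6 CPM with 3, and Foxa2 at 141 and 148 CPM with 5, against 76 and 96.6 CPM with 3. Chrd, Nog and Cer1 were likewise higher at 5 in both libraries. Lhx1 was lower at 5, at 29.3 and 43.2 CPM, against 46.1 and 87.2 CPM with 3, as was Hhex, at 4.88 and 26.1 CPM with 5, against 28.9 and 44.4 CPM with 3. Gsc and Dkk1 differed in direction between the libraries. Outside the axial list, Lmx1a was at 157 and 121 CPM with 5, against 11.3 and 17.7 CPM with 3, and Sox9 at 141 and 156 CPM with 5, against 19 and 43.8 CPM with 3. Sox1 ran the other way, at 6.78 and 5.9 CPM with 3 gate genes and 0 and 1.46, 0 and 1.37 and 0 and 3.55 CPM with 4, 5 and 6. Sox17 was at 31.2 and 44.1 CPM with 3 and 2.44 and 13.7 CPM with 5, and Hand1 was highest in cells with 1 gate gene, at 347 and 148 CPM. Of the Sox1 UMIs in the set, 15 of 15 in replicate 1 and 19 of 27 in replicate 2 lay in cells with exactly 3 gate genes. Such cells were 126 of the 290 and 280 of the 646. Just outside the set, with 2 gate genes, Sox1 was at 6.34 and 7.27 CPM, near its level with 3. Median depth was 15175 and 10089.5 UMIs at 3 gate genes and 14384 and 9989.5 at 5. It was lowest at 0 gate genes, at 12712 and 9061 UMIs, and highest at 6, at 16373 and 11794. The part of depth in this series was not tested.

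**Figure D2:**
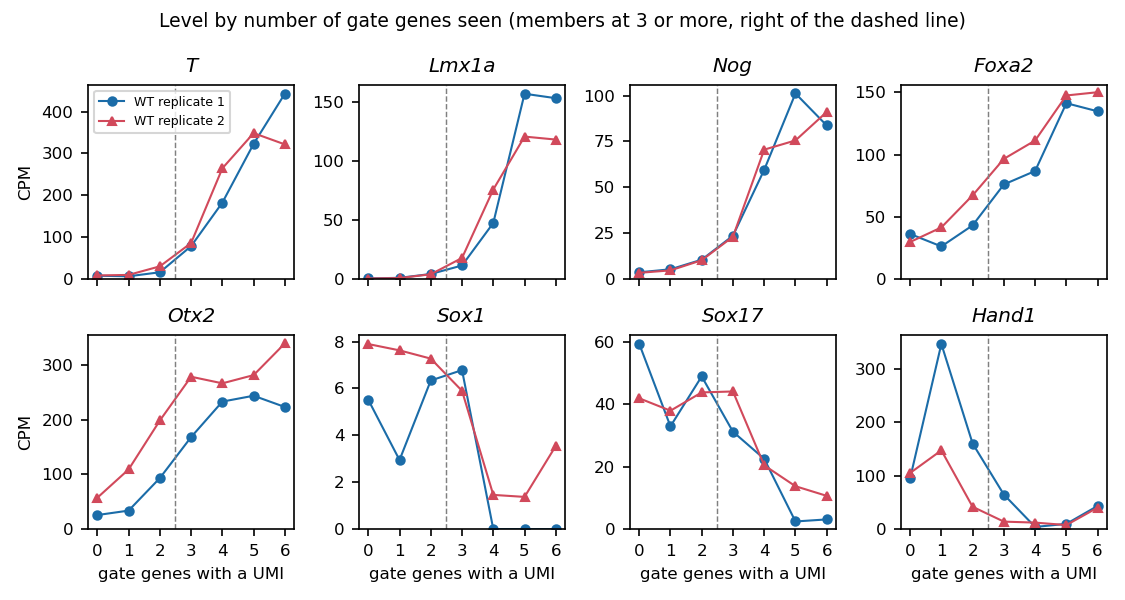
Level in CPM (vertical axes, each from 0) of 8 genes outside the rule by the number of gate genes with a UMI (0 to 6, horizontal axes) in WT cells; Shh Six3 cells lie right of the dashed line, and cells left out through the Krt7 genes are not plotted. T, Lmx1a, Nog and Foxa2 are higher at 5 gate genes than at 2 in both replicates, Sox1 and Sox17 are lower at 5 than at 3, and Hand1 peaks at 1. The horizontal axes count the rule's own genes, so the series is a description.

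The Shh Six3 cells were not uniform. A UMI of T was seen in 151 of 290 cells of replicate 1 and in 370 of 646 of replicate 2. Cells with T had a median of 16373 and 9609.5 UMIs, against 12851 and 11015 UMIs in cells without, so the deeper group differed between libraries. Shh was at 216 and 257 CPM where T was seen, against 46.8 and 78.3 CPM where it was not, and a UMI of Shh was found in 70.2 and 74.6% of the cells with T and 31.7 and 34.4% of those without. The same cells held more Nog (82.4 and 87.4 CPM, against 20.1 and 13 CPM without T), Car3 (91.9 and 84.5 CPM, against 4.81 and 4.35 CPM without T) and Lmx1a (103 and 107 CPM, against 17.5 and 14.2 CPM without T). Foxd1, Sox9, Alcam and Krt19 followed, with Krt19 at 304 and 389 CPM where T was seen, against 36.7 and 63.8 CPM where it was not. In all 7 genes each library gave the same order, by more than 3-fold.

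Other genes were higher where T was not seen. Gsc was at 28.8 and 44.1 CPM in Shh Six3 cells with T, against 51.2 and 89 CPM in those without. Hesx1 was at 6.45 and 10.4 CPM with T, against 28.9 and 30.7 CPM without, and Lhx1 at 29.2 and 34.1 CPM with T, against 43.7 and 91.3 CPM without. Sox17 was at 7.97 and 11.6 CPM with T, against 35 and 47.8 CPM without. The neural genes Sox1 (0.759 and 1.94 CPM with T, against 5.68 and 5.51 CPM without) and Pax6 (0.759 and 0.242 CPM with T, against 3.5 and 3.19 CPM without) were low in both. Genes of pluripotent cells moved with the same split. Dppa5a was at 3.8 and 3.15 CPM with T, against 42.8 and 187 CPM without, Nanog at 1.14 and 2.66 CPM with T, against 6.56 and 11 CPM without, and L1td1 at 3.8 and 2.18 CPM with T, against 19.2 and 10.1 CPM without. Their part in the other differences was not tested. Six3 itself was at 146 and 162 CPM with T, against 113 and 162 CPM without, and Otx2 at 195 and 253 CPM with T, against 215 and 318 CPM without. Foxa2 (121 and 141 CPM with T, against 70.4 and 86.7 CPM without) and Cer1 (111 and 101 CPM with T, against 69.1 and 63.2 CPM without) were present on both sides. Absence of a UMI does not show absence of a transcript, and levels among the 6 gate genes are tied by the rule, which asks for 3 of them.

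**Figure D3:**
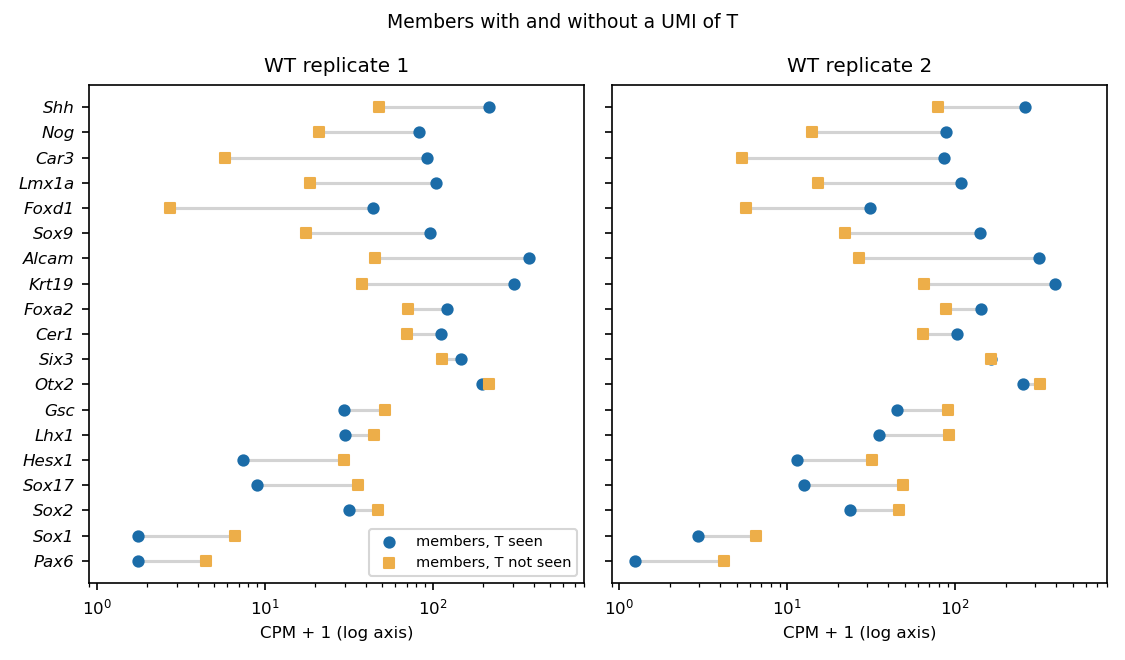
Level (CPM plus 1, log axis) of 19 genes in Shh Six3 cells (members) with a UMI of T (circles) and without one (squares), for WT replicate 1 (left, 151 and 139 cells) and WT replicate 2 (right, 370 and 276 cells). Shh, Nog, Car3, Lmx1a, Foxd1, Sox9, Alcam and Krt19 are higher with T in both replicates, and Gsc, Lhx1, Hesx1, Sox17, Sox2, Sox1 and Pax6 are higher without it. By share of cells with a UMI, Sox2 went the other way in replicate 1, at 29.8% with T and 23.7% without. In replicate 2 these shares were 15.1% and 21.0%.

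Cells with Six3 and cells without it also differed in anterior genes. A UMI of Six3 was seen in 186 and 436 Shh Six3 cells. Hesx1 was at 23.3 and 25.8 CPM with Six3, against 2.62 and 4.57 CPM without, and Gsc at 48 and 73.1 CPM with Six3, against 19.6 and 43.4 CPM without. Car3 went the other way, at 42.4 and 34.1 CPM with Six3, against 71.4 and 82.2 CPM without. T was at 187 and 194 CPM with Six3, against 206 and 253 CPM without, and 93 of 290 and 234 of 646 cells held both genes. Sox2 was seen in 78 and 114 Shh Six3 cells, with Sox1 at 6.78 and 11.2 CPM and Pax6 at 3.65 and 5.05 CPM there. In both libraries Sox1 and Pax6 were thus above their level in the Shh Six3 cells as a whole, and lower in those without Sox2. Pluripotency genes were higher in the cells with Sox2, with Dppa5a at 49.5 and 361 CPM, against 4.33 and 2.24 CPM in those without. Klf2 was at 15.1 and 28.1 CPM with Sox2, against 1.66 and 3.28 CPM without, and Nanog at 7.82 and 16.8 CPM with Sox2, against 0.999 and 3.28 CPM without. Cells with Sox2 were deeper, at a median of 21751.5 and 13552.5 UMIs, against 12431 and 9803 UMIs in those without. Those with Six3 were deeper too, at 16430 and 10916 UMIs, against 11363 and 8905 UMIs in those without Six3, and the part of depth in these splits was not tested.

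The leading genes were then read in 5 further sets of WT cells, each taken by 3 of 6 genes of another kind. Cells with 3 or more gate genes were left out, as were cells that met the rule of another set. This partly fixes low levels of the gate genes, and of genes that go with them such as T, in the 5 sets. The sets were led by Krt7 (243 and 286 cells), the visceral endoderm gene Ttr (177 and 111), Hand1 (829 and 952), the mesenchymal gene Foxc2 (74 and 240) and the endothelial gene Cdh5 (93 and 112). Lmx1a was at 63.4 and 64.5 CPM in the Shh Six3 cells and at 1.55 CPM or less in all 5. Nog was at 8.81 CPM or less in them. T was at 193 and 211 CPM in the Shh Six3 cells, against 57.5 and 27.5 CPM in the Foxc2 set and 3.91 and 21.2 CPM in the Cdh5 set. It was at 4.54 CPM or less in the other 3 sets.

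Some leading genes were shared. Cer1 was at 91.6 and 83.8 CPM in the Shh Six3 cells, against 67.1 and 78.2 CPM in the Foxc2 set, and Ptch1 at 527 and 487 CPM, against 378 and 326 CPM there. Gli1 in the Foxc2 set, at 17.8 and 25.5 CPM, was close to its 18.3 and 16.9 CPM in the Shh Six3 cells. Otx2 was at 204 and 283 CPM in the Shh Six3 cells, against 132 and 192 CPM in the Krt7 set, and Foxa2 at 97.3 and 116 CPM, against 70.4 and 63.1 CPM in the Ttr set. Shh was at 2.13 CPM or less in all 5 sets. Sox1 and Pax6 were at 3.87 CPM or less in each of them, and at 8.94 and 10.7 CPM for Sox1 and 1.71 and 2.25 CPM for Pax6 in the WT cells of no set.

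**Figure D4:**
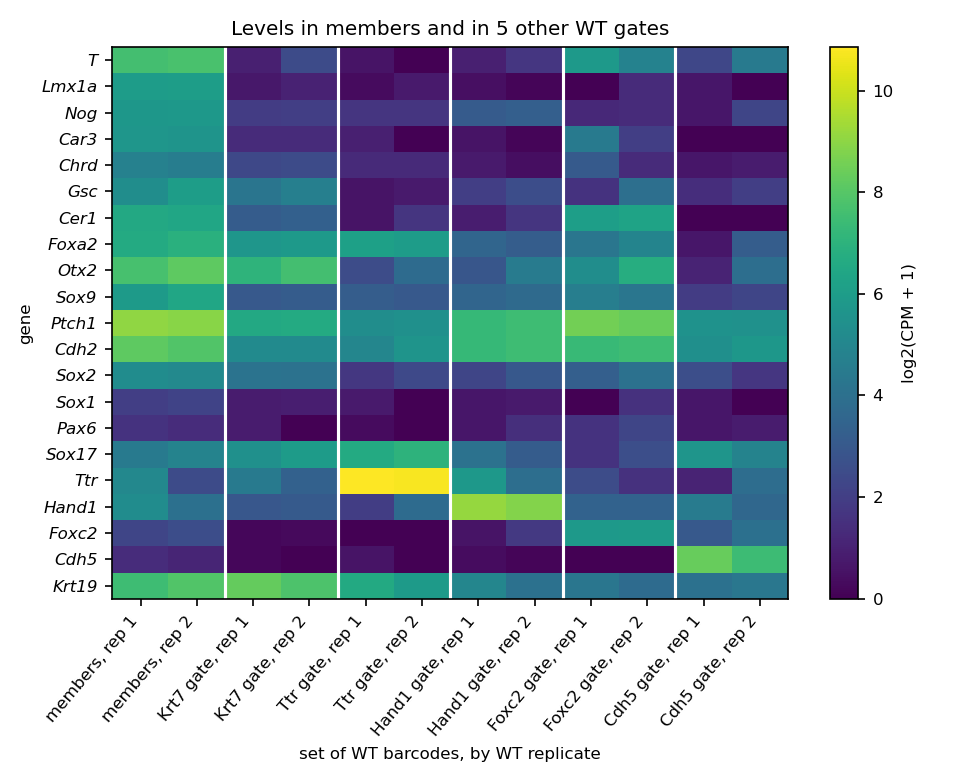
Level, as log2(CPM + 1) on the colour scale, of 21 genes (rows) in the Shh Six3 cells (members, left) and in 5 other sets of WT cells taken by 3 of 6 genes each, with WT replicates 1 and 2 side by side. Cells with 3 or more gate genes were left out of the 5 other sets. Lmx1a, Nog and Chrd are brightest in the Shh Six3 cells, Cer1 is shared with the Foxc2 set and Foxa2 with the Ttr and Krt7 sets, and Ttr, Hand1 and Cdh5 mark their own sets.

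A few Shh Six3 cells also met the rule of another set, 35 of 290 (12.1%) and 53 of 646 (8.20%). These had a median of 24085 and 15285 UMIs, against 13616 and 9826 UMIs in the rest. Most met the Foxc2 rule, 22 and 35 cells, followed by Hand1, 14 and 18. No doublet caller was run, and a pair of cells in 1 droplet was not told from 1 cell. Without these cells 177 genes were higher and 143 lower, and 8 of 18 axial and 2 of 17 neural genes were higher, as with them.

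In LSD1KO EBs the same rule found 16 of 4850 cells (0.330%, exact interval 0.189 to 0.535) and 39 of 2450 cells (1.59%, interval 1.13 to 2.17), against 7.92 and 10.2% in WT EBs. The rule was written from WT cells with earlier results of these libraries known, so these shares are a description. Shh gave 0 UMIs in those 55 LSD1KO cells, and none held 5 or 6 gate genes. Shh was rare in the remaining LSD1KO cells too, at 2 and 1 UMIs. Lmx1a and Chrd gave 0 UMIs in the cells that met the rule, and Nog and Foxa2 gave 1 and 2 UMIs, all in replicate 1. These genes were low in the remaining LSD1KO cells too. There Lmx1a was at 0.289 and 0.263 CPM, Chrd at 0.867 and 0.691, Nog at 1.95 and 0.756 and Foxa2 at 3.99 and 2.09. Other axial genes were present in the cells that met the rule, with Gsc at 93.2 and 15.6 CPM, against 25.1 and 7.86 CPM in the remaining LSD1KO cells. Lhx1 was at 193.5 and 32.6 CPM, against 65.9 and 10.1 CPM, and Mixl1 at 168 and 11.5 CPM, against 56.8 and 8.45 CPM. Sox1 was at 25.1 and 21.1 CPM in the LSD1KO cells that met the rule, against 3.05 and 3.56 CPM in the WT Shh Six3 cells. The value of replicate 1 rests on 7 UMIs in 2 of 16 LSD1KO cells, and the remaining LSD1KO cells had 5.33 and 10.4 CPM of Sox1. Otx2 was at 86 and 51.6 CPM in the LSD1KO cells, against 204 and 283 CPM in the WT ones. T was at 602 and 57.7 CPM in these LSD1KO cells, against 193 and 211 CPM in the WT Shh Six3 cells. In the remaining LSD1KO cells T was at 268 and 51.1 CPM, lower than in those that met the rule in replicate 1 and close to them in replicate 2. The LSD1KO cells that met the rule were deeper than their neighbours, at a median of 17079 and 33544 UMIs, against 12822.5 and 24517 UMIs.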

How the data were processed

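Single-cell RNA-seq (10x 3′ v3.1) was run on 2 LSD1KO and 2 WT libraries of day 6 EBs. Per the methods and processing notes, the authors used Cell Ranger 7.1.0 with default settings and Seurat 4.3.0, with mm9 as the build named, and kept cells with at least 500 UMIs and 500 genes. The deposited matrices hold counts, whole UMIs per gene and barcode, not normalized and listing empty droplets too. Their depth was 72285943 to 75406512 UMIs a library.

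The depth filter asked a barcode for 2000 UMIs and 1000 genes. Shh Six3 cells were taken by the rule given at the start. Members and gene lists were chosen with earlier results of these data known. Counts were summed per set and library and scaled to CPM (counts per 1000000 UMIs). A gene was measured when 10 or more WT barcodes held it, and log2 folds had 5 CPM added. No test was run, since the rule used the same contrast. Intervals are exact (Clopper-Pearson, 95%). Thinning drew 2000 UMIs per cell, which every kept cell had. The named genes were the 12 of the rule, the 25 highest and 10 lowest by mean log2 fold with at least 50 CPM (the 25 also seen in at least 25% of Shh Six3 cells), the gene lists and the 12 markers of the study. Some genes of these lists are counted but not reported here by name. No doublet caller was run. Instead the deepest 5% of cells and those in another set were left out as an alternative. Scripts used Python 3.11.15, NumPy 2.4.6, SciPy 1.17.1 and pandas 2.3.3, and were tested on simulated data.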

Additional observations from a re-analysis of the deposited data

How the results depend on the processing

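With 2 libraries and no test, the values describe these libraries, and depth limits what a missing UMI means for genes of a few CPM. No paired analysis was possible because the results come from no test, and each fold is already taken within 1 library. The mean share of Shh Six3 cells, 9.06%, was 17.3% with 2 of 6 gate genes asked, 5.13% with 4, 4.94% with 2 UMIs asked per gene and 2.90% after thinning. It was 6.89% without Six3 in the rule, 7.05% without Samd3, 5.63% without Slit2 and 7.45% without Cobl, and single libraries gave 7.92 to 10.2%. The 164 higher and 111 lower genes became 334 and 266 with 1 CPM added instead of 5, and single libraries gave 181 to 298 higher and 131 to 220 lower. After thinning, 148 of the 164 and 94 of the 111 were called again. Across the alternatives for which gene calls were made (4 of 6 gate genes asked, the added CPM, the filters, thinning, possible doublets and single libraries) 8 axial genes were higher, and 2 to 4 neural genes. Calls were not made for the other forms of the rule. The median log2 fold of neural genes was 0.0064 after thinning and 0.021 to 0.22 in single libraries. That of axial genes was 1.07 with 1 CPM added, 1.60 without genes under 10 CPM (13 of 18 left), 0.58 with CPM averaged per barcode, 0.53 after thinning, 0.54 without possible doublets and 0.42 to 0.57 in single libraries. Of 759 values for single named genes, 521 moved by less than the spread between libraries, 238 by more, and 0 called values changed sign. Leaving out the cells of another set was chosen after seeing the data.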
